A study of Rattus norvegicus with 6 samples.

Results

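Transcript levels of 7 genes that are usually read as neuronal were followed in rat cultures of oligodendrocyte progenitor cells (OPCs). These are glial cells that divide and mature into the oligodendrocytes that form myelin. The genes were chosen by name, with earlier results of these data known. They were the RNA-binding protein genes Elavl3, Elavl4 and Rbfox3, the immature neuron gene Dcx and the growth cone gene Gap43. The GABA synthesis genes Gad1 and Gad2 completed the 7. Each was represented by its brightest probe set with a value on all 6 arrays. All 7 were measured, of 13355 genes in all, and each had 1 probe set that carries no other gene symbol.

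The primary OPCs were taken from pups at postnatal day 1 to 2 and recovered for 2 days in proliferation medium with NT3 and PDGF. There were 2 groups, 3 arrays of unstimulated cells (control) and 3 arrays of cells given fibrinogen, the clotting protein of blood plasma, for 48 h in differentiation medium. The titles give the controls the same 48 h, and the medium of the controls is not stated. The labels do not say whether the arrays of a group came from separate cultures or animals, or whether pups were pooled, so p-values measure the spread between these arrays, which may be technical. The series title asks whether fibrinogen activates BMP signaling in OPCs; the values here describe which neuron-type genes such cultures express and whether fibrinogen moves them.

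ELAV-like proteins bind AU-rich and U-rich stretches of messenger RNA and affect its splicing, stability and translation; Elavl1 is made in most cells, whereas Elavl2, Elavl3 and Elavl4 are mainly neuronal. Rbfox3 is the splicing regulator known to histologists as the neuronal antigen NeuN. Dcx (doublecortin) stabilises microtubules in migrating young neurons, and Gap43 is a membrane-bound phosphoprotein of growing axons. Gad1 and Gad2 encode both forms of glutamate decarboxylase, the enzyme that turns glutamate into the inhibitory transmitter GABA. REST, a repressor that keeps many neuronal genes silent in other cells, binds a DNA element called RE1.

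The promoter windows of Elavl4 and Elavl3 are shown because these paralogs changed in opposite directions. RefSeq's promoter table (build GRCr8) held 5 of the 7 members, without Rbfox3 and Gap43; the windows are the 250 bases upstream of the listed start, both on the minus strand, at chr5:130367664-130367913 for Elavl4 and chr8:28859014-28859263 for Elavl3, written 5′ to 3′. Capitals mark a match to the left arm of the RE1 element, TTCAGCACC, on either strand.
Elavl4: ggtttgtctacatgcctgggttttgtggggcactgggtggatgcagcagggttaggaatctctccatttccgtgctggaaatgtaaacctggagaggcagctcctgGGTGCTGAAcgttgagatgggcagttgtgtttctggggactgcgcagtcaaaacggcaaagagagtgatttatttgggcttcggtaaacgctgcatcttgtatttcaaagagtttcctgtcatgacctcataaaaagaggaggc
Elavl3: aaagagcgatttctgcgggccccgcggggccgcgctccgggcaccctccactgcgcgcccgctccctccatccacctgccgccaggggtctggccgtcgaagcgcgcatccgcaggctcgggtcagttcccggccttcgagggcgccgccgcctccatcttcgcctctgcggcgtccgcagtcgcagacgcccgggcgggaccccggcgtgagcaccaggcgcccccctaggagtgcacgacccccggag
The Elavl4 window holds 1 match, on the strand opposite to the gene. Of all 33469 promoter windows of this length, 0.305% hold it. The windows of Elavl3, Dcx, Gad1 and Gad2 do not. The right arm of RE1 was not searched for, so the match does not show a whole element. The TATA motif TATAAA, found in 12.9% of all windows, was absent from the windows of Elavl4 and Elavl3 and present once each in those of Dcx and Gad1. Also searched was CANNTG, which 65.5% of all windows hold, with 1 match each for Elavl4, Elavl3 and Gad1. The windows also differ in base composition: G and C make up 49.6% of the Elavl4 window, which has 6 CG dinucleotides, and 75.6% of the Elavl3 window, which has 35, against a median of 51.2% over all windows. These matches are descriptions of letters, not of binding.

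Of the 7 genes, Elavl4 and Gap43 rose with fibrinogen, Elavl3 fell, and Rbfox3, Dcx, Gad1 and Gad2 did not pass the test. The test was limma on the log2 values, with p-values adjusted over all 13355 genes by the Benjamini-Hochberg method and a threshold of 0.05. By that rule 7.16% of all genes passed, 4.16% upward and 3.00% downward. Centring the arrays on their medians turned the split over all genes from 555 higher and 401 lower to 434 higher and 516 lower. With any one array left out, the members past the threshold were down to Elavl4. The values of the groups did not overlap for 5 of the 7 genes, against 27.0% of all genes. One of the 5 was Gad1, whose nearest arrays were 5.38 and 5.36. The members and the lists below were chosen with earlier results of these data known. Their shares beside those of all genes are thus descriptions and test nothing about the sets. The median log2 fold change of the 7 was -0.07, beside 0.003 over all genes tested. In RNA from a whole culture, a change in the number of cells of a type and a change in the RNA per cell cannot be told apart.

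**Figure D1:**
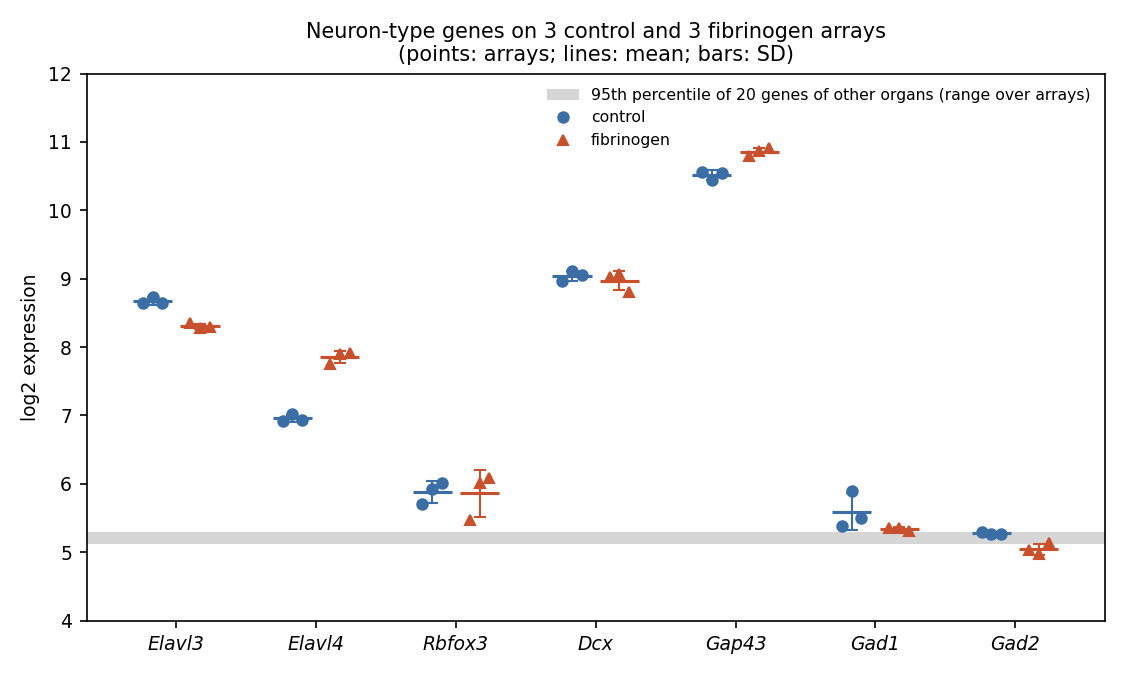
Log2 expression (vertical axis) of the 7 genes (horizontal axis) on each of 3 control arrays (circles) and 3 fibrinogen arrays (triangles), with the group mean (line) and SD (bar). The grey band is the range over arrays of the 95th percentile of 20 genes of other organs, 5.12 to 5.30; Gad1 and Gad2 lie at or near it, and the other genes reach above it.

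Elavl4, the ELAV-like gene with the clear change, had a log2 expression of 6.92, 7.02 and 6.93 on the control arrays and 7.76, 7.90 and 7.92 on the fibrinogen arrays. Every fibrinogen array lay above every control array, and the distance between the groups was larger than the spread within either. The mean rose 1.87-fold, from 6.96 ± 0.06 to 7.86 ± 0.09 (SD, n = 3; log2 fold change 0.90, SE 0.08, limma adjusted p = 0.00204). Among all 13355 genes it ranked 47 by p-value, and the rise passed in all 14 alternative settings run, with a highest adjusted p of 0.0238.

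Elavl3, its paralog, went the other way. Its log2 expression was 8.64, 8.74 and 8.65 on the control arrays and 8.35, 8.28 and 8.29 on the fibrinogen arrays. The groups were again apart and each was tight. The mean fell 1.29-fold, from 8.68 ± 0.06 to 8.31 ± 0.04 (SD, n = 3; log2 fold change -0.37, SE 0.07, limma adjusted p = 0.0275). Leaving out any single array ended that call, with an adjusted p from 0.0536 without control 1 to 0.104 without fibrinogen 2.

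The log2 difference between Elavl4 and Elavl3 within an array isolates their unequal change, since probe brightness cancels between groups. It was -1.72 on each of the 3 control arrays and -0.59, -0.38 and -0.37 on the fibrinogen arrays. The shift was 1.27, with no overlap between the groups (two-sided exact permutation p = 0.1, the smallest that 3 arrays against 3 allow; 0.2 adjusted over the 2 paralog pairs compared). For Gad1 and Gad2 the same difference averaged 0.32 ± 0.29 in control and 0.30 ± 0.11 (SD, n = 3) with fibrinogen. That shift of -0.02 was smaller than the spread between arrays (two-sided exact permutation p = 1), so an unequal change of the GABA synthesis genes was not detectable with these arrays.

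**Figure D2:**
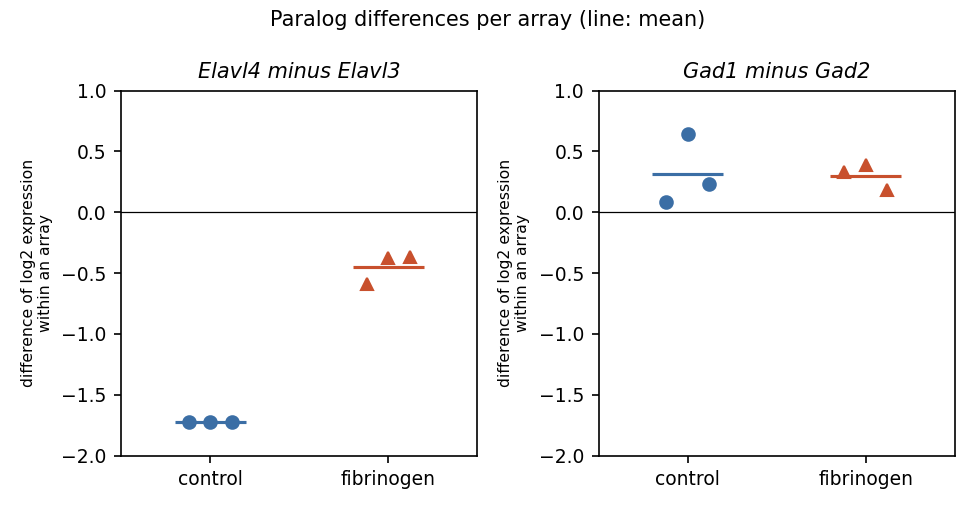
Difference of log2 expression between paralogs within each array (vertical axis) for Elavl4 minus Elavl3 (left) and Gad1 minus Gad2 (right), in control (circles) and fibrinogen (triangles) arrays, with group means as lines. The left pair moves from -1.72 on all control arrays to between -0.59 and -0.37, and the right pair overlaps between groups.

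Rbfox3 did not separate the groups. Its log2 expression was 5.70, 5.92 and 6.02 on the control arrays and 5.47, 6.02 and 6.09 on the fibrinogen arrays. The lowest and the highest of the 6 values were both fibrinogen arrays. The log2 fold change was -0.02 (95% interval -0.43 to 0.39, limma adjusted p = 0.966), and without fibrinogen 1, the lowest array, it was 0.175 (adjusted p = 0.533). Its values were the most scattered of the fibrinogen group, with an SD of 0.34 against 0.03 to 0.14 for the other 6 genes.

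Dcx was among the bright probe sets in both groups. Its log2 expression was 8.97, 9.11 and 9.05 on the control arrays and 9.03, 9.07 and 8.81 on the fibrinogen arrays. The groups overlapped, with fibrinogen 3 the lowest array. The log2 fold change was -0.07 (95% interval -0.30 to 0.15, limma adjusted p = 0.725).

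The probe set of Gap43 was brighter than 96.6% of all valued probe sets, which says nothing of its abundance against another gene. Its log2 expression was 10.56, 10.44 and 10.55 on the control arrays and 10.79, 10.87 and 10.91 on the fibrinogen arrays. All fibrinogen arrays lay above all control arrays. The mean rose 1.27-fold, from 10.52 ± 0.07 to 10.86 ± 0.06 (SD, n = 3; log2 fold change 0.34, SE 0.08, limma adjusted p = 0.0437). This call sat close to the threshold: it ended when any single array was left out (adjusted p from 0.0753 without control 1 to 0.143 without fibrinogen 3) and when arrays were centred on their medians (log2 fold change 0.29, adjusted p = 0.0694).

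Gad1 had a log2 expression of 5.38, 5.90 and 5.50 on the control arrays and 5.36, 5.36 and 5.31 on the fibrinogen arrays. Control 2 stood highest, and the nearest arrays of the groups were 5.38 and 5.36. The log2 fold change of -0.25 did not pass (95% interval -0.57 to 0.07, limma adjusted p = 0.357), and without control 2 it was -0.10. Gad2 was at 5.30, 5.26 and 5.27 on the control arrays and 5.03, 4.97 and 5.13 on the fibrinogen arrays. All its fibrinogen values were below all its control values, and its log2 fold change of -0.23 had an interval of -0.41 to -0.06 before adjustment, but over all genes it did not pass (limma adjusted p = 0.127).

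**Figure D3:**
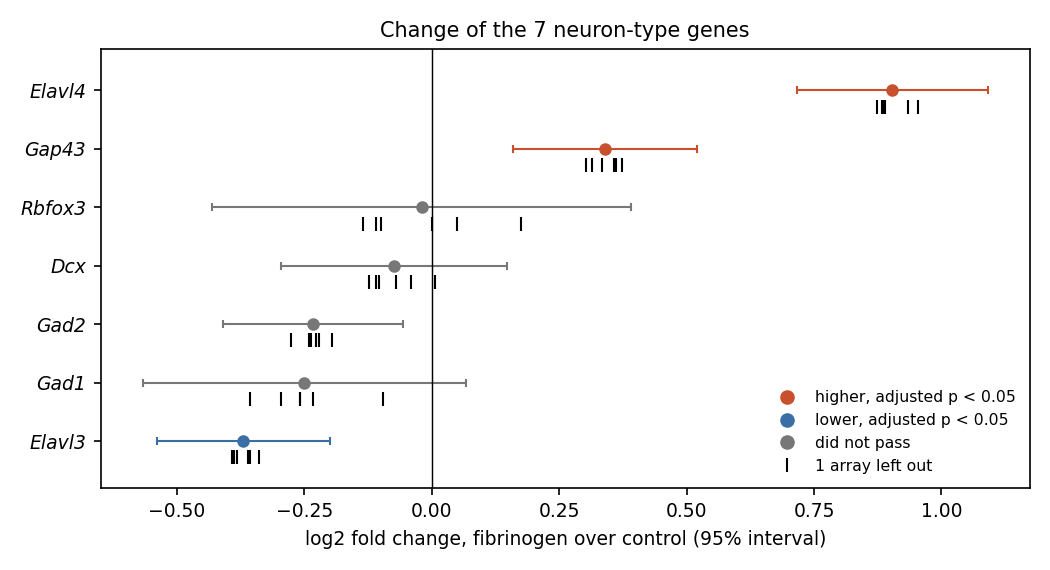
Log2 fold change of fibrinogen over control (horizontal axis) with its 95% interval for each of the 7 genes; black ticks below each point are the fold changes with 1 array left out. Elavl4 at 0.90 stands apart, Gap43 at 0.34 and Elavl3 at -0.37 lie on opposite sides of 0, and the ticks of Rbfox3 and Dcx fall on both sides of it.

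No detection call accompanies the values, so dimness was read against 20 measured genes of liver, pancreas, testis, muscle, eye and kidney, such as Alb, Ins1 and Prm1, which brain cells are not known for. Brightness also depends on the probes, so this is a yardstick and not a test of expression. Their mean log2 levels ran from 2.69 to 5.49, the latter for the sperm protamine gene Prm1. Elavl3, Elavl4, Dcx and Gap43 lay above the brightest of these 20 genes on all 6 arrays, and Rbfox3 on 5 of 6. Gad1 did so on 1 array, control 2, and Gad2 on no array. Against the 95th percentile of the 20 genes, Gad1 was higher on 6 arrays and Gad2 on 2. Elavl3, Elavl4, Dcx and Gap43 were thus well above this yardstick, while the levels of Gad1 and Gad2 were those of the brighter genes of other organs.

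Markers of cell types that such a culture can hold were read the same way, with a score per array that averages the log2 levels of a list's genes. Over all genes tested, 60.3% exceeded the 95th percentile of the yardstick on every array, and the counts below are to be read beside that share. All 7 measured progenitor markers exceeded the 95th percentile of the yardstick on every array (score 9.89 to 9.96 in control and 10.26 to 10.30 with fibrinogen), with Cspg4, C1ql1, Pdgfra and Olig1 higher with fibrinogen and 3 that did not pass, beside 7.16% of all genes called. Of 7 markers of myelinating oligodendrocytes, 6 exceeded it (8.96 to 9.04 and 8.60 to 8.65), and Mag, Cldn11, Cnp and Mbp were lower and 3 did not pass. All 7 astrocyte markers did (8.19 to 8.25 and 8.48 to 8.53), and Gfap, Slc1a2 and Slc1a3 were higher while 4 did not pass, Aqp4, Gja1 and S100b having negative log2 fold changes of -0.24, -0.10 and -0.09 (median of the 7 genes 0.04). The calls of Olig1, Pdgfra, Cldn11, Cnp and Mbp ended when fibrinogen 1 was left out, those of Cnp and Mbp also without any other array and that of Olig1 also without fibrinogen 3 (highest adjusted p = 0.0560, 0.0504, 0.0532, 0.143 and 0.156). Mbp had 2 probe sets, and with their mean its log2 fold change of -0.36 did not pass (limma adjusted p = 0.0807). Of 10 general neuron markers, 8 exceeded the 95th percentile of the yardstick on every array (6.86 to 6.99 and 6.80 to 6.85). The vesicular glutamate transporter genes Slc17a6 and Slc17a7 did not. Just 1 of 8 microglia markers, 0 of 4 endothelial markers and 1 of 6 pericyte and fibroblast markers exceeded it; the microglial integrin gene Itgam, below it on every array, fell by 0.60 on the log2 scale (adjusted p = 0.0357; 0.122 at most with 1 array left out, and past the threshold just without control 1). A level below the yardstick does not show that a cell type was absent. The part of these cell types in the changes of Elavl4, Elavl3 and Gap43 was not tested.

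A wider list of 18 measured neuronal RNA-binding genes and their relatives contains 3 of the members. Of these 18 genes 5 rose, 1 fell and 12 did not pass, where 4.16% of all genes rose and 3.00% fell. The median log2 fold change was 0.07, beside 0.003 over all genes. This list too was chosen with earlier results of these data known, so its counts are no test of the set. Celf3, a neuronal splicing and translation regulator, rose 1.77-fold, with a log2 expression of 6.51, 6.91 and 6.49 in control and 7.46, 7.49 and 7.42 with fibrinogen (limma adjusted p = 0.0107). Its fibrinogen arrays were closely grouped above all control arrays. Msi1 (Musashi 1, a translation regulator of neural progenitors) rose 1.43-fold (adjusted p = 0.0401), and Ptbp2, the splicing repressor of developing neurons, 1.36-fold (adjusted p = 0.0464). Celf2, named after its values were seen, rose 1.54-fold (adjusted p = 0.0431).

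The relatives that are made in most cells had intervals on both sides of 0. Elavl1 had a log2 fold change of -0.003 (95% interval -0.17 to 0.16) and Ptbp1, the general counterpart of Ptbp2, of -0.03 (95% interval -0.19 to 0.13). The neuronal Elavl2 also did not pass, at 0.10 (95% interval -0.15 to 0.34). With an array left out, the list kept 1 to 3 rises and no fall. The call of Celf3 was lost without fibrinogen 1 or fibrinogen 2 (highest adjusted p = 0.0525), those of Msi1 and Ptbp2 whichever array was left out (at most 0.111 and 0.145), and that of Celf2 without control 3 and without each fibrinogen array (at most 0.139). With centred arrays, 2 genes of the list rose, Elavl4 and Celf3, and Elavl3 fell. The unmoderated test kept Elavl4 and Elavl3 and ended the calls of Celf3, Msi1, Celf2 and Ptbp2 (adjusted p = 0.0719, 0.130, 0.158 and 0.125).

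**Figure D4:**
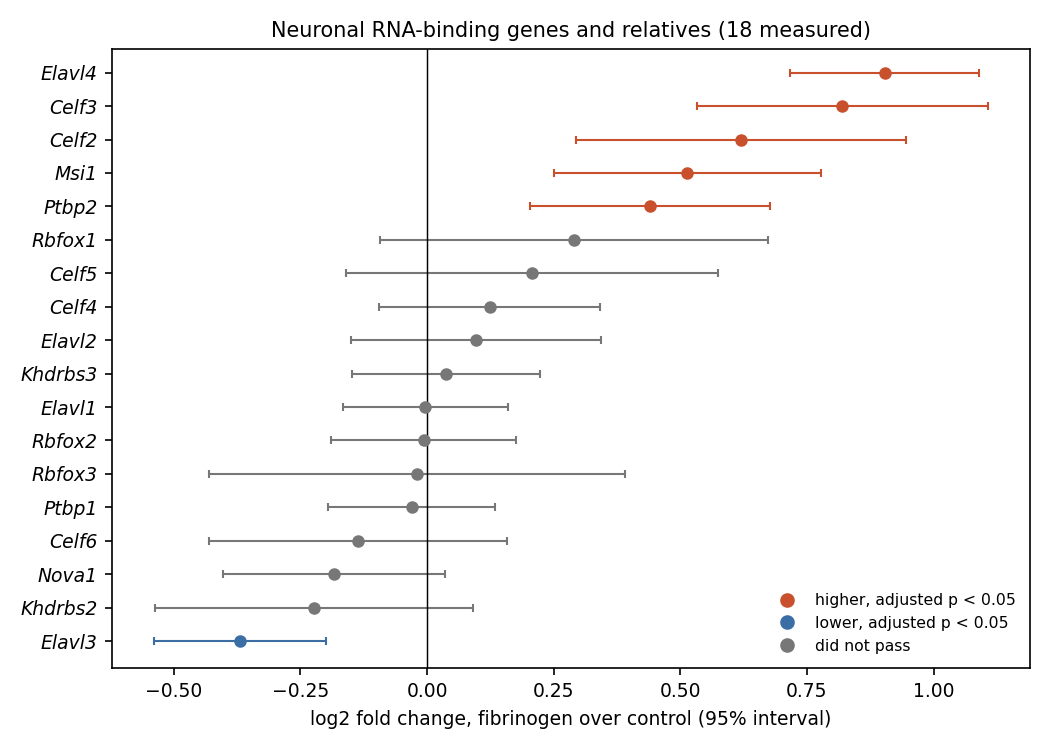
Log2 fold change of fibrinogen over control (horizontal axis) with 95% intervals for 18 neuronal RNA-binding genes and relatives, coloured by whether they passed the test upward, downward or not. Elavl4 (0.90) and Celf3 (0.82) are at the top and Elavl3 (-0.37) at the bottom.

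None of 11 measured genes of GABA synthesis, transport and breakdown passed in limma, and 2 had an unadjusted p under 0.05; limma with an intensity trend and robust fitting and the unmoderated test also gave 0. With 7.16% of all genes called, and 2815 of 13355 at an unadjusted p under 0.05, these counts are near the background and show nothing particular to the list. The median log2 fold change was -0.07, and 8 of the 11 values were negative. Over all 13355 genes 6548 were negative, with a median of 0.003. Among the 20 genes of other organs 15 were negative, with a median of -0.08, so such a lean was not particular to the GABA list. Slc32a1, which loads GABA into vesicles, had a log2 expression of 5.23, 5.68 and 5.79 in control and 4.93, 5.29 and 4.96 with fibrinogen. It was dim, and exceeded the 95th percentile of the yardstick on just 3 of the 6 arrays. Its groups overlapped, and the log2 fold change was -0.51 (95% interval -0.90 to -0.11, limma adjusted p = 0.134; 0.0473 without control 1). Abat, the transaminase that breaks GABA down, averaged 8.80 ± 0.11 on control arrays and 8.73 ± 0.11 on fibrinogen arrays (SD, n = 3), with an interval of -0.29 to 0.15 for its log2 fold change.

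Dcx and Gap43 belong to a list of 21 immature neuron and axon growth genes, of which 6 rose, 1 fell and 14 did not pass (median log2 fold change 0.08), beside 7.16% of all genes past the threshold. That balance moved with the setting: 4 rose and 3 fell with centred arrays, and 9 rose and 5 fell with an intensity trend and robust fitting. The groups did not overlap for 14 of the 21, against 27.0% of all genes. Earlier results of these data were known when the list was chosen, so that count is no test of the set. Dclk1, a doublecortin-like kinase and the relative of Dcx, rose 2.05-fold, with a mean log2 expression of 6.91 ± 0.03 in control and of 7.94 ± 0.05 with fibrinogen (SD, n = 3; limma adjusted p = 0.00141). Its groups lay far apart while those of Dcx overlapped; the difference between both changes was not tested. Stmn3, a stathmin that destabilises microtubules, rose 1.78-fold (adjusted p = 0.00671) and Nsg2, an endosomal protein of neurons, 1.53-fold (adjusted p = 0.0198). Map1b, a microtubule-associated protein of growing axons, had a mean log2 expression of 10.73 ± 0.13 in control and of 10.11 ± 0.10 with fibrinogen (SD, n = 3), a 1.54-fold fall with an adjusted p of 0.0121.

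The stathmin genes did not move as a block. Stmn2 rose 1.30-fold (limma adjusted p = 0.0297) and Stmn1, named after its values were seen, 1.24-fold (adjusted p = 0.0469), and neither call survived the loss of any single array (at most 0.108 and 0.149). Stmn4, also named afterwards, had a log2 fold change of -0.43 (adjusted p = 0.0530) and passed as lower with the arrays centred (adjusted p = 0.0385). Tubb3, the neuronal beta tubulin often used to stain young neurons, averaged 9.40 ± 0.11 on control arrays and 9.15 ± 0.06 on fibrinogen arrays (SD, n = 3) and did not pass (adjusted p = 0.135). With an array left out the list kept 2 or 3 rises; the calls of Dclk1 and Stmn3 held each time, that of Nsg2 was lost without any fibrinogen array (highest adjusted p = 0.0824), and that of Map1b without fibrinogen 1 or fibrinogen 3 (highest adjusted p = 0.0562). The unmoderated test ended the calls of Stmn3, Nsg2 and Map1b (adjusted p = 0.0529, 0.0857 and 0.0604), and centring the arrays that of Stmn1 (adjusted p = 0.0718).

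Of 19 measured genes of mature neurons, with Rbfox3 among them, 0 rose in limma, 2 fell and 17 did not pass (median log2 fold change -0.07; 6 had an unadjusted p under 0.05). Those 2 calls are a share near the 7.16% of all genes. Limma with a trend and robust fitting gave 1 higher and 4 lower, where 12.1% of all genes passed. Syt1, the calcium sensor of synaptic vesicle release, fell 2.24-fold, from 8.83, 8.93 and 8.75 in control to 7.67, 7.65 and 7.70 with fibrinogen (limma adjusted p = 0.00141). Its fibrinogen arrays were tightly grouped far below the control arrays. Eno2, the neuronal enolase of glycolysis, fell 1.58-fold (adjusted p = 0.00460), and both calls held with any one array left out. Snap25, a fusion protein of synaptic vesicles, averaged 6.63 ± 0.10 on control arrays and 6.71 ± 0.12 on fibrinogen arrays (SD, n = 3; 95% interval of the log2 fold change -0.15 to 0.30).

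**Figure D5:**
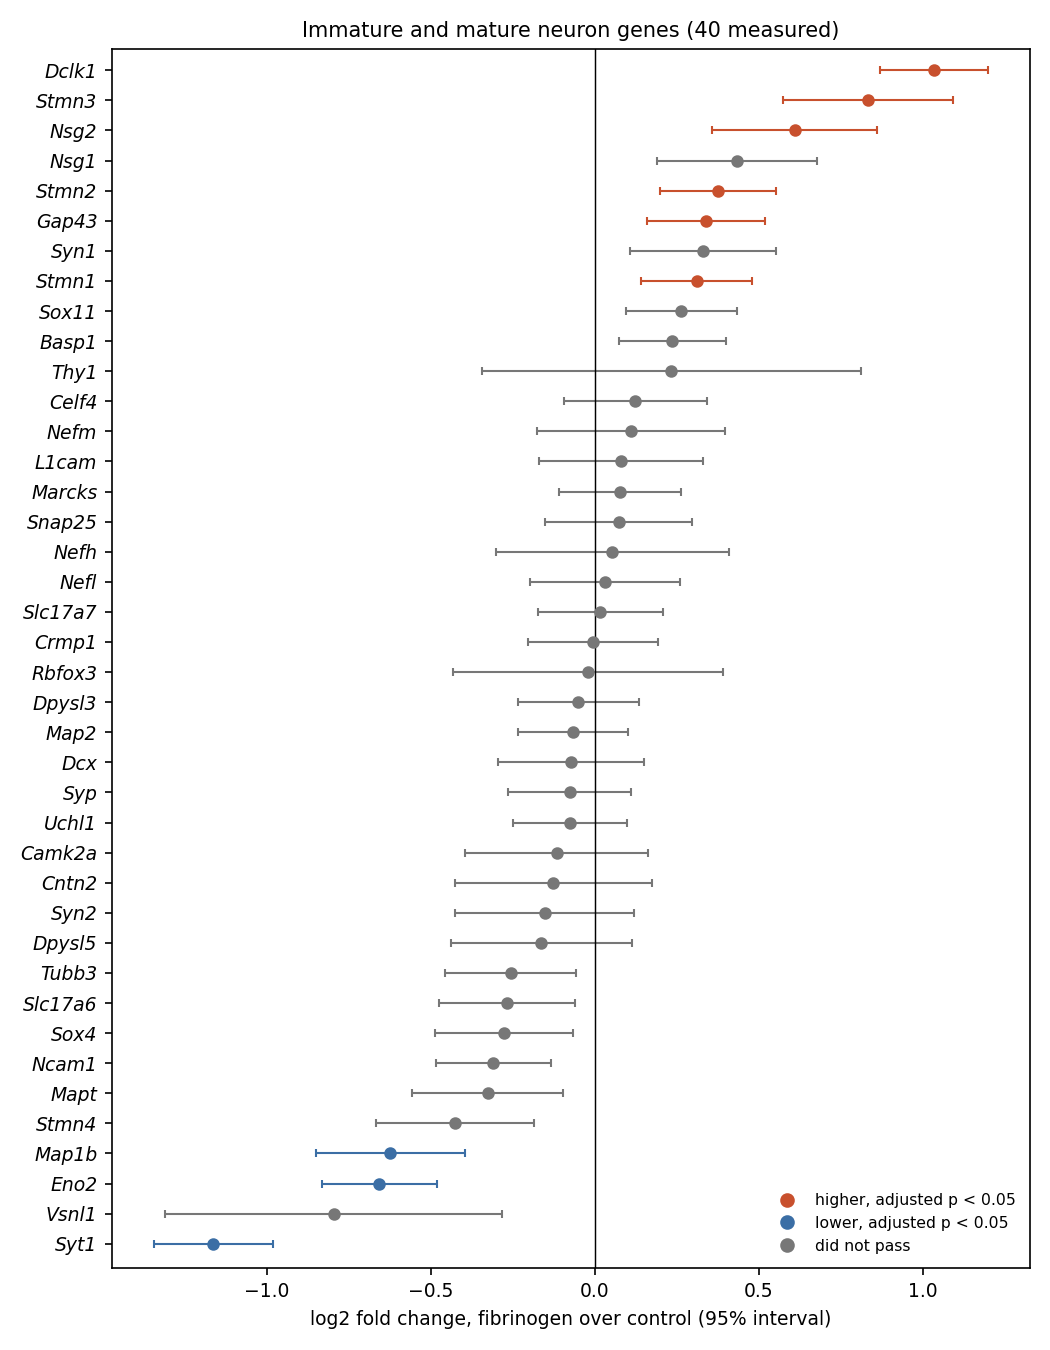
Log2 fold change of fibrinogen over control (horizontal axis) with 95% intervals for 40 genes of the immature and mature neuron lists, coloured by whether they passed the test upward, downward or not. Dclk1 (1.03) and Syt1 (-1.16) are the extremes; Dcx and Rbfox3 lie near 0.

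Genes whose pattern was closest to the members with the largest changes were found by the root mean square difference of log2 values over the 6 arrays, after each gene was centred on its mean. For Elavl4 they were Ogfrl1 (difference 0.06), Nell2, a secreted EGF-like protein (0.07), and Gfap, the astrocyte intermediate filament gene (0.07), against a median of 0.47 over all genes. Their log2 fold changes were 0.87, 0.80 and 1.00 (limma adjusted p = 0.00166, 0.00560 and 0.00162). For Elavl3 they were Rab4b, Abhd3 and Acsl5, each within 0.02 or 0.03, with log2 fold changes of -0.35, -0.39 and -0.35 and, as for Elavl3, calls that ended with any single array left out (at most 0.116, 0.107 and 0.108). This likeness is dominated by the size of the group difference, and 460 genes lay within 0.1 of Elavl3 and 34 within 0.1 of Elavl4. The genes were picked for their likeness on these same arrays. Their similar fold changes, calls and lost calls thus follow from the choice and are no separate result.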

How the data were processed

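The authors deposited log2 expression values of 6 Affymetrix arrays; the submitters' processing notes name RMA and limma, with no settings, and further steps are not given in the sources used here. Array medians were 5.78, 5.80 and 5.80 for control and 5.84 on each fibrinogen array, so the small offset between them followed the groups. Centring the arrays on their medians removes that offset. RNA was amplified and biotin-labelled with NuGEN kits, per the labels' protocols. Of 26312 probe sets, 23631 had a value on every array; 14083 of these had 1 symbol in the platform's annotation and gave 13355 genes, the brightest probe set standing for each. Groups come from the titles. The groups were compared with limma 3.58.1 under R 4.3.3, by lmFit followed by eBayes, two-sided, with neither covariates nor a brightness filter. The code was tested on simulated data. The number of arrays limits precision: the median SE of a log2 fold change was 0.104. No scan or slide batches are given in the sources used here.

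The members and lists were chosen with earlier results of these data known. Named were all members, up to 4 genes past the threshold per list with the smallest p, 14 genes whatever their values where measured (11 were), and the 3 genes most like each of the 2 members of largest change. Celf2, Stmn1 and Stmn4 are said to have been named afterwards. Also named outside this rule were Aqp4, Gja1, S100b, Slc17a6, Slc17a7, Sst, Npy, Pvalb, Vip and the examples of the yardstick. Of the neuron lists, members without a valued probe set of 1 symbol were not analysed here. Alternatives were other scaling, filters, probe summaries, variance models, a replicate block and each array left out.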

Additional observations from a re-analysis of the deposited data

How the results depend on the processing

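The rise of Elavl4 kept its call in all 14 alternatives (log2 fold change 0.86 to 0.95). The count of called genes over all genes, 956 as reported, was 1508 without genes below the median brightness (fewer genes tested), 1617 with an intensity trend and robust fitting, 500 without moderation and 358 to 592 with 1 array left out; the other alternatives but the block stayed within 1.5 times.

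Gap43 lost its call with centred arrays (0.29, adjusted p = 0.0694), with every probe set tested (0.34, adjusted p = 0.0687), without moderation (0.34, adjusted p = 0.0608) and with any array left out (0.30 to 0.37). Elavl3 lost its call with any array left out (-0.39 to -0.34) and kept it in 7 of the other 8 alternatives. The cause was not tested. With 1 array left out, fold changes of genes that did not pass crossed 0: Rbfox3 from -0.135 to 0.175, Dcx from -0.12 to 0.0067, Gad1 minus Gad2 from -0.135 to 0.145, Elavl1 from -0.028 to 0.012 and Dlx1 from -0.037 to 0.133 (-0.017 with centred arrays). Gad1 and Gad2 could not be fitted where genes below the median brightness were left out, and passed in none of their 13 alternatives.

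Deviations of same-numbered arrays from their group means correlated at 0.0202, -0.135 and -0.0740 over 13355 genes. Those of differently numbered arrays ran from -0.0981 to 0.173. The labels do not say whether the replicate numbers of the titles pair the arrays, and 3 arrays per group cannot settle it. With the replicate block 343 genes were called, the log2 fold changes stayed at -0.37 for Elavl3 (adjusted p = 0.105) and 0.34 for Gap43 (adjusted p = 0.127), and Elavl4 passed. The alternatives for genes that are no members, and for list counts, were added after seeing the data.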

Other observations

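Interneurons, the cells that make most GABA in the cortex, are told apart by peptides and calcium-binding proteins. A list of 11 measured genes held 9 of that kind and also Reln and Nxph1, which encode other secreted proteins. In limma 1 rose and 1 fell, where 4.16% of all genes rose and 3.00% fell; with centred arrays 0 rose and 1 fell. Reln fell 1.36-fold, from a log2 expression of 6.02 ± 0.11 in control to 5.57 ± 0.01 (SD, n = 3) with fibrinogen (adjusted p = 0.0228). Reln encodes reelin, a secreted guidance protein, and its call was kept just without control 1 (at most 0.0865 with another array left out, and 0.0548 in the unmoderated test). Nxph1, a secreted ligand of neurexins, rose 1.24-fold, with 9.25 ± 0.03 on control arrays and 9.55 ± 0.02 on fibrinogen arrays (SD, n = 3; adjusted p = 0.0418), and its call ended with any single array left out (at most 0.137) and with centred arrays (0.0637). The other 9, which are the peptide and calcium-binder genes, did not pass. Of the 11, 4 exceeded the 95th percentile of the yardstick on every array, against 60.3% of all genes. These were Reln, Nxph1, the somatostatin gene Sst and the neuropeptide Y gene Npy. The parvalbumin gene Pvalb and the Vip gene exceeded it on no array.

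Of 11 measured transcription factors on a list for neuron lineages, with the repressor Rest among them, 0 passed in limma and 1 had an unadjusted p under 0.05. Limma with a trend and robust fitting also gave 0. At 7.16% of all genes called, a count of 0 among 11 is near the background. The gene with an unadjusted p under 0.05 was Rest, a repressor of neuronal genes and not itself a factor of neuron lineages. It averaged 7.07 ± 0.10 on control arrays and 6.84 ± 0.04 on fibrinogen arrays (SD, n = 3; limma adjusted p = 0.149, and -0.42 to -0.04 as the 95% interval of its log2 fold change). Its control arrays all lay above its fibrinogen arrays. Dlx1, a homeobox gene of GABA neuron precursors, was at 5.77 ± 0.09 and 5.80 ± 0.18 (SD, n = 3). Just 3 of the 11 exceeded the 95th percentile of the yardstick on every array, against 60.3% of all genes.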
